A study of Homo sapiens with 8 samples.

Results

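Of the 327994 genomic regions in the 6 deposited lists, 62 carried the name of a clustered histone gene: 40 regions captured with an RNA oligo and 22 regions of the control lists. A region was counted where one of its gene names began with HIST1H, HIST2H, HIST3H or HIST4H, the older symbols of the histone gene clusters. Together the 62 regions used 31 such names, 25 of protein-coding genes and 6 of pseudogenes, and all 31 were found in RefSeq. The names were used 65 times, since 3 regions carried a pair of histone names.

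The regions come from a test-tube capture on DNA of the human embryonic stem cell line H1. In each of the 3 oligo groups, 6 to 7 µg of purified, RNA-free DNA, sonicated to 200 to 300 bp, was held for 1 h at 37 °C with 20 pmol of a biotinylated RNA, in a buffer with KCl at 50 mM and MgCl2 at 5 mM. DNA held by the RNA was recovered on streptavidin beads. The oligos MEG3 TFR1 and MEG3 TFR2 carry sequences of MEG3, an imprinted long noncoding RNA, and GATA6-AS TFR1 carries sequence of the transcript antisense to GATA6, while the no-oligo control had the same DNA and beads and no RNA. TFR is read here as a triplex-forming region, a stretch of RNA able to lie in the major groove of a DNA duplex. Each group had 2 libraries from independent experiments, 8 libraries in 4 groups, and every oligo was set against the same no-oligo libraries. For each oligo one list holds captured regions, with more signal with the oligo, and one holds control regions, with more signal without it. A region has one log2 ratio of oligo over no oligo, as the authors deposited it. There is no value per library, so the depth and the error of a ratio are unknown, and no test between groups was possible. The DNA was free of chromatin, and no histone RNA or protein was measured.

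The clustered histone genes encode the histones made in bulk when DNA is replicated. Histones H2A, H2B, H3 and H4 form the nucleosome core and H1 binds the DNA that links nucleosomes. Most of these genes have no introns, and their mRNAs end in a stem-loop in place of a poly(A) tail. NPAT, which gathers in a nuclear body at these clusters, drives their transcription in S phase. Many copies of each gene lie side by side, the largest cluster being HIST1 on chromosome 6, and their promoters typically hold TATA and CCAAT elements.

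The following 3 promoters are shown because they were the only ones, of the 66 coding clustered histone genes with a promoter sequence here, that any region of the 6 lists overlapped. Each runs from 250 bases before to 50 bases after the gene start, 5′ to 3′ on the gene's strand, taken from RefSeq (GRCh38.p14), and capitals mark the bases inside the region. H2BC3 (older symbol HIST1H2BB), a histone H2B gene, was overlapped by a captured region of MEG3 TFR2, H4C6 (HIST1H4F), a histone H4 gene, by a captured region of GATA6-AS TFR1, and H4C7 (HIST1H4G), also an H4 gene, by a control region of the GATA6-AS TFR1 comparison.
H2BC3, chr6:26043664-26043963, minus strand: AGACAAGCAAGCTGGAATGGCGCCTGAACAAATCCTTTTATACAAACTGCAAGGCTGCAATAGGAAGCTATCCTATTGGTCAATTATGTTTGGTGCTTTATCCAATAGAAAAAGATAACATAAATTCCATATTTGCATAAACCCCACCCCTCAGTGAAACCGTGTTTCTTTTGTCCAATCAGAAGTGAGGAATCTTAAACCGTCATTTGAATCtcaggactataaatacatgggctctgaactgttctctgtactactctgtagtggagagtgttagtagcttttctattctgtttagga
H4C6, chr6:26240143-26240442, plus strand: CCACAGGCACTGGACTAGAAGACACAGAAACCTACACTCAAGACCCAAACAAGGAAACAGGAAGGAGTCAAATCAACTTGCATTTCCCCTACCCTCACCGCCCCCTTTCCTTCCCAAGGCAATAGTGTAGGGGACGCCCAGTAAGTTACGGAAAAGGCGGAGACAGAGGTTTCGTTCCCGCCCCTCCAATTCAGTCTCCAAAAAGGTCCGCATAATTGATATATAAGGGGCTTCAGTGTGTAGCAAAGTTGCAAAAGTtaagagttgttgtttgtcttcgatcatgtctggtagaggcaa
H4C7, chr6:26246947-26247246, minus strand: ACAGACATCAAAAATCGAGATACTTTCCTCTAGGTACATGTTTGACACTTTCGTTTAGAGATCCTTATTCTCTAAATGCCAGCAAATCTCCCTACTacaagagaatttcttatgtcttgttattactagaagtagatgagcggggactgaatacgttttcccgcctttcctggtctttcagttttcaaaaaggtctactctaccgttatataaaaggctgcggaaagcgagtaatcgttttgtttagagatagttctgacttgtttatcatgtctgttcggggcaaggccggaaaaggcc
The captured regions covered 213 of the 300 bases of the H2BC3 promoter and 258 of the 300 bases of the H4C6 promoter, and the control region covered 96 bases of the H4C7 promoter. The longest unbroken run of pyrimidines or purines in the H4C6 promoter was 15 bases, all pyrimidines, at bases 101 to 115 of the printed strand and inside the captured region. In the other two promoters the longest such run was 9 bases. H2BC3 held 2 matches to TATAAA and 3 to CCAAT, H4C6 held 0 and 1, and H4C7 held 1 and 0, counted on both strands.

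Histone-named regions were few in every list, and the captured ones made up a smaller share than among all regions with each oligo. MEG3 TFR1 had 10 captured and 3 control regions, so that 76.9% were captured (95% Wilson interval 49.7% to 91.8%), against 87.6% of all regions of that comparison. MEG3 TFR2 had 13 captured and 5 control regions, or 72.2% captured (49.1% to 87.5%), against 87% of all regions. GATA6-AS TFR1 had 17 captured and 14 control regions, or 54.8% captured (37.8% to 70.8%), against 74.3% of all regions. The background share lay inside the interval for both MEG3 oligos and above it for GATA6-AS TFR1. With GATA6-AS TFR1 the captured share was 59.3% without the chromosome 13 pseudogenes and 50% with unmarked names only. Counted by position within 5 kb of a histone gene it was 56.5%. These alternatives rest on fewer regions and have no interval here, so whether the background lies above them too was not tested. These intervals treat regions as independent draws and cover counting error only. The 3 comparisons share the no-oligo libraries and are therefore given side by side.

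**Figure D1:**
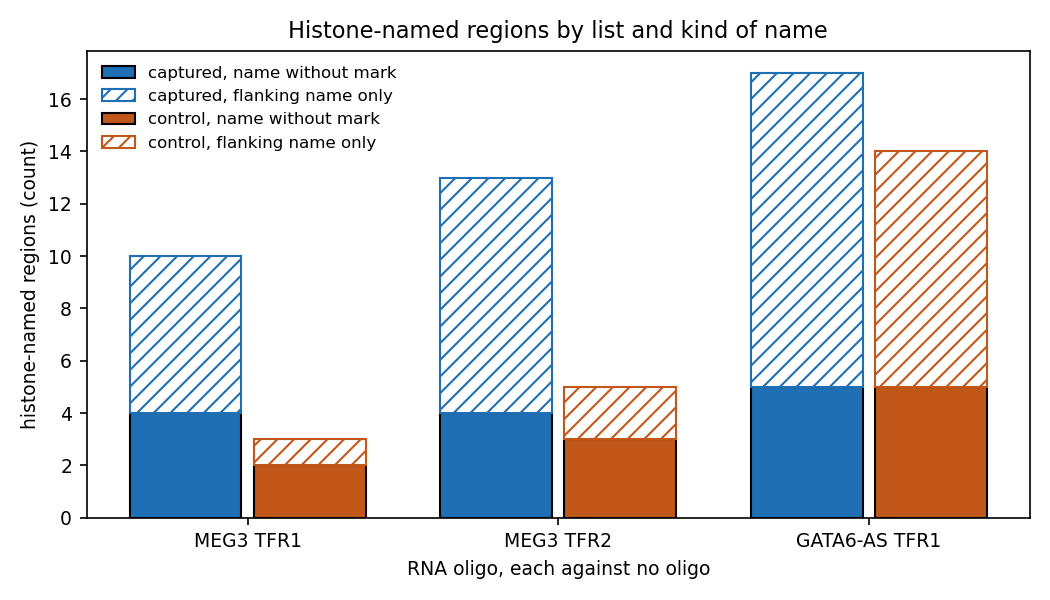
Number of histone-named regions in the captured (left, blue) and control (right, orange) list of each oligo, as stacked counts. Filled parts are regions named for a histone gene without a mark, hatched parts are regions in which every histone name had a flanking mark. GATA6-AS TFR1 had 17 captured and 14 control regions, MEG3 TFR2 13 and 5, and MEG3 TFR1 10 and 3.

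The log2 ratios of histone-named captured regions were close to those of their lists. With MEG3 TFR1 the median was 1.27, from 1.08 to 2.16, against 1.41 over the whole captured list, and 3 of the 10 regions lay above that list median. With MEG3 TFR2 it was 1.31, from 0.82 to 3.00, against 1.44, and 4 of 13 lay above. With GATA6-AS TFR1 it was 1.33, from 0.73 to 2.71, against 1.34, and 8 of 17 lay above. The control regions had medians of -1.86 (MEG3 TFR1), -1.45 (MEG3 TFR2) and -1.80 (GATA6-AS TFR1), against -1.53, -1.46 and -1.57 over the whole control lists. Median widths of the captured regions were 400, 350 and 400 bp in that order of oligos, against 350, 350 and 400 bp over the lists.

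**Figure D2:**
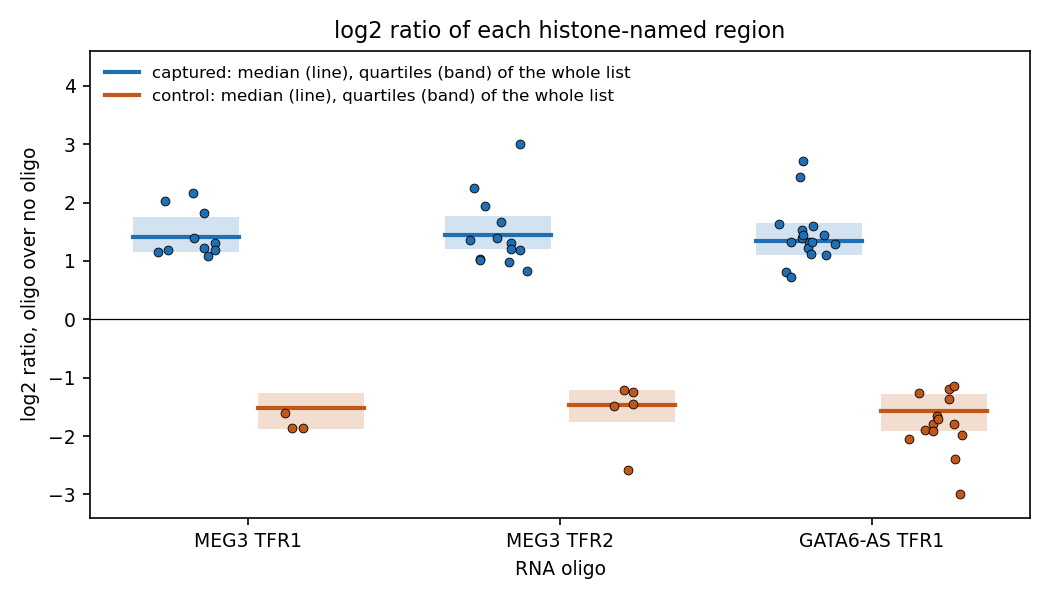
The log2 ratio of oligo over no oligo (vertical axis) for each histone-named region, captured in blue and control in orange, by oligo. Lines are the medians and bands the quartiles of the whole lists. Captured medians of the histone-named regions were 1.27, 1.31 and 1.33 with MEG3 TFR1, with MEG3 TFR2 and with GATA6-AS TFR1, and the highest captured region, at 3.00, belonged to MEG3 TFR2.

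By histone type, pseudogenes included, H2B names were the most frequent. These counts go by name, and the named gene was not always the nearest histone gene. H2B names were on 17 captured and 9 control regions and H2A names on 11 and 7. For H3 the counts were 7 captured and 2 control, and for H4 they were 7 and 5. No region of any list was named for a linker histone H1 gene, although 6 protein-coding H1 genes lie in the clusters. With pseudogenes, RefSeq has 23 H2A, 26 H2B, 17 H3 and 16 H4 genes with such older symbols, of which 17, 18, 15 and 15 are coding. The isolated pseudogene HIST1H2APS6 on chromosome 13 alone carried 6 of the captured and 5 of the control H2A regions.

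Among H2B genes, HIST1H2BB (H2BC3) carried the most regions, 3 captured and 7 control. Its captured regions were chr6:26087401-26087850 with GATA6-AS TFR1 at a log2 ratio of 2.71, the highest captured value of that oligo among histone-named regions, and chr6:26043751-26044100 and chr6:26123201-26123700 with MEG3 TFR2 at 1.20 and 0.82. The control regions fell on 3 loci. At chr6:26043301-26043650, inside the gene, the ratio was -1.61 (MEG3 TFR1), -2.58 (MEG3 TFR2) and -1.71 (GATA6-AS TFR1). The remaining loci were listed with MEG3 TFR2 and GATA6-AS TFR1, at -1.25 and -1.37 for the region starting at 26047601 and at -1.45 and -1.98 for the region starting at 26050101. Both lay nearer to the H3 gene H3C3, at 1732 and 4232 bp, than to H2BC3, at 3888 and 6388 bp. The captured promoter region of MEG3 TFR2 printed above lay 38 bp from the gene, overlapped part of the neighbouring pseudogene H2AC5P, and lay 100 bp from the edge of a control region of GATA6-AS TFR1. This was the closest approach of a captured to a control region among the members.

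HIST1H2BD (H2BC5), another H2B gene, was overlapped by a captured region of GATA6-AS TFR1 at 1.64 (chr6:26164351-26164850). At its far end, control regions were listed with MEG3 TFR1 at -1.86 and with GATA6-AS TFR1 at -2.40. The captured and control regions of GATA6-AS TFR1 on this gene were 6400 bp apart. HIST1H2BM (H2BC14) had a captured region of GATA6-AS TFR1 at 2.44, a ratio of 5.41, at chr6:27810751-27811050. HIST1H2BN (H2BC15) was named by a captured region of MEG3 TFR1 at 1.16 and by one of MEG3 TFR2 at 0.99. Single captured regions named HIST1H2BE at 1.31, HIST1H2BI at 1.21 and HIST1H2BH at 1.01 with MEG3 TFR2, and HIST1H2BL at 1.54 with GATA6-AS TFR1. The HIST1H2BI region also carried the name HIST1H4H, and the HIST1H2BH region also carried the name HIST1H3G. H2B regions outside HIST1 were HIST2H2BE (H2BC21) with MEG3 TFR1 at 1.19, and HIST3H2BB at 1.33 and the pseudogene HIST3H2BA at 0.82 with GATA6-AS TFR1.

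Coding H2A genes were named by few regions. HIST1H2AA (H2AC1), the outermost gene of the HIST1 cluster, was named by a captured region of MEG3 TFR2 at 1.39 and by a control region of GATA6-AS TFR1 at -2.99, the most negative value among the members. GATA6-AS TFR1 captured regions named HIST1H2AI at 1.40, HIST1H2AJ at 1.44 and HIST3H2A at 1.32, and a control region named HIST3H2A at -1.90. The pseudogene HIST1H2APS4 was named by a captured region of MEG3 TFR2 at 1.67.

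For H3, the highest value was that of HIST1H3E (H3C6), an H3 gene overlapped by a captured region of MEG3 TFR1 at 2.16 (chr6:26225801-26226100), the highest histone-named value of that oligo. HIST3H3 (H3-4) had a captured region of GATA6-AS TFR1 at 1.61, and HIST1H3H and HIST1H3G were named at 1.29 with GATA6-AS TFR1 and 1.01 with MEG3 TFR2. The HIST1H3G region is the same one that named HIST1H2BH. The pseudogene HIST1H3PS1 was named by one captured region of each oligo, at 1.22 with MEG3 TFR1, 1.37 with MEG3 TFR2 and 0.73 with GATA6-AS TFR1, and by a control region of GATA6-AS TFR1 at -1.14. Those 3 captured regions did not overlap one another. HIST1H3J shared its only region with the H4 gene HIST1H4L, a control region of GATA6-AS TFR1 at -1.92.

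For H4, GATA6-AS TFR1 captured regions overlapped HIST1H4A (H4C1) and HIST1H4F (H4C6), each at 1.11. HIST4H4 (H4C16), the single gene of its cluster on chromosome 12, had a captured region of the same oligo at 1.21, 720 bp from the gene. HIST1H4H (H4C8) was named by captured regions of MEG3 TFR1 at 1.18 and MEG3 TFR2 at 1.21 and by a control region of GATA6-AS TFR1 at -1.79. The MEG3 TFR2 region is the one that also named HIST1H2BI, and it lay 639 bp from that gene and 10.8 kb from H4C8. HIST1H4G (H4C7) was named by the control region of the promoter printed above, at -1.19. The pseudogene HIST1H4PS1 was named by captured regions of MEG3 TFR1 at 1.82 and GATA6-AS TFR1 at 1.45, and by a control locus listed with MEG3 TFR2 at -1.21 and GATA6-AS TFR1 at -1.25.

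A group of 14 regions lay on chromosome 13, far from any coding histone cluster, and owed their place to a pair of isolated pseudogenes. HIST1H2APS6 (H2ACP1), an H2A pseudogene, was the most used name of all, with 6 captured and 5 control regions. Its captured values were 2.03, 1.31 and 1.39 with MEG3 TFR1, 2.25 and 1.95 with MEG3 TFR2, and 1.32 with GATA6-AS TFR1. Its control values were -1.87 with MEG3 TFR1, -1.49 with MEG3 TFR2, and -1.80, -2.05 and -1.66 with GATA6-AS TFR1. HIST1H2BPS3 (H2BP6), an H2B pseudogene, had captured regions at 3.00 and 1.03 with MEG3 TFR2 and at 1.08 with MEG3 TFR1. The value of 3.00, an 8-fold ratio at chr13:21464751-21465000, was the highest of all 62 regions, and that region lay 18.8 kb from the pseudogene. No region overlapped either pseudogene and carried its name. A captured region of MEG3 TFR1 that did overlap H2BP6 (chr13:21484101-21484500, log2 ratio 1.07) was named for MICU2. The other 48 regions, named for the clusters proper, fell on chromosome 6 (41), chromosome 1 (6) and chromosome 12 (1).

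How close a region lay to the gene it was named for depended on the mark after the name. The files do not explain the marks, so they were read against RefSeq positions: in all 42 uses of a marked name, (+) stood after a gene at a higher coordinate than the region and (-) after a gene at a lower one. Among the captured regions 13 had a histone name without a mark and 27 only marked, flanking names; among the control regions the counts were 10 and 12. The share with an unmarked histone name was 40% of the captured regions with MEG3 TFR1, 30.8% with MEG3 TFR2 and 29.4% with GATA6-AS TFR1, against 50.2%, 50.9% and 55.5% of all regions of those lists with an unmarked name of any gene. Control regions had shares of 66.7%, 60% and 35.7% in that order of oligos, against 54.8%, 55.2% and 50.9%.

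Unmarked names were mostly near their gene. Of the 23, 9 regions overlapped it, 13 lay within 1 kb and 17 within 5 kb, with a median distance of 0.271 kb. The other 6 lay more than 5 kb away. In 2 of them, the captured regions named HIST1H2BB at 26087401 and 26123201, the distance to H2BC3 was over 10 kb, at 43.7 and 79.5 kb. The region at 26123201 lay inside H2BC4, another H2B gene. Of the 23 unmarked names, 8 had another clustered histone gene nearer than the named one, and 7 had another gene in between. Flanking names were much farther off: none of the 42 overlapped its gene, 1 lay within 1 kb and 31 lay more than 10 kb away, with a median of 21.8 kb and a maximum of 92.6 kb. At least one other gene lay between region and named gene in 21 of those 42.

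**Figure D3:**
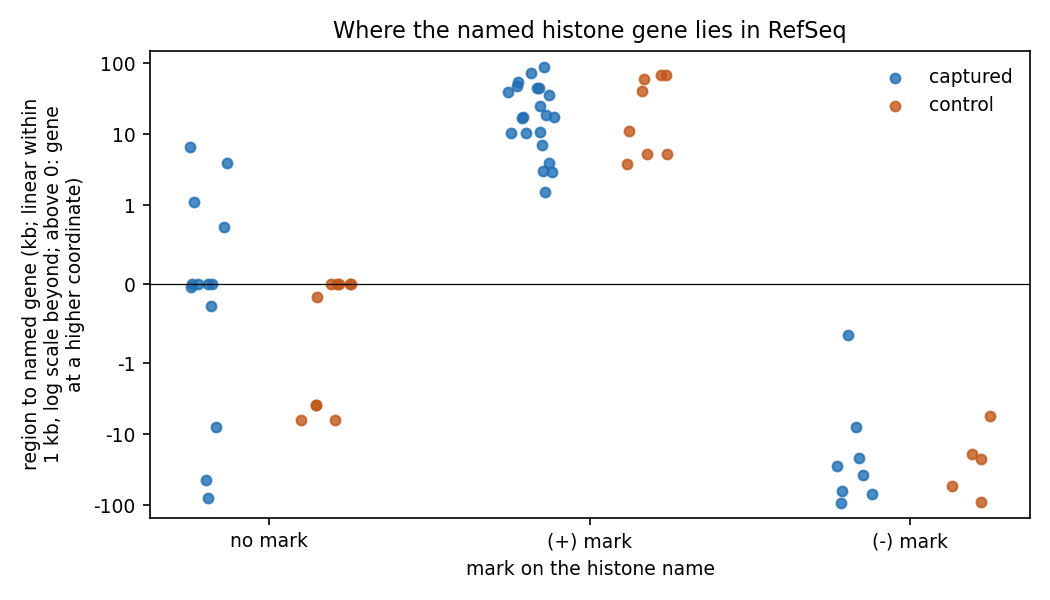
Distance in kb from each histone-named region to the RefSeq position of the gene it is named for, by the mark on the name, for captured (blue, left) and control (orange, right) regions. The axis is linear within 1 kb and logarithmic beyond, and values above 0 mean a gene at a higher coordinate. Unmarked names cluster near 0, with a median of 0.271 kb, and flanking names lie up to 92.6 kb away.

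Regions whose only name carried a (+) mark were named in a stepwise way. In the GATA6-AS TFR1 captured list, 6 histone-named regions before and inside the last block of HIST1 genes were named, in order, HIST1H4PS1, HIST1H2BL, HIST1H2AI, HIST1H3H, HIST1H2AJ and HIST1H2BM, which is the order of those genes along chromosome 6. The regions started at 27719401, 27753201, 27771951, 27784901, 27806751 and 27810751, while the 6 genes start between 27807167 and 27815022. They were not all consecutive in the list, since a region starting at 27807201 and named AL049822.1 lay between those named HIST1H2AJ and HIST1H2BM. The region named HIST1H2AJ thus lay 7.15 kb from that gene and 17 bp from the pseudogene H4C10P (HIST1H4PS1), and the region named HIST1H2BM lay 3.97 kb from its gene and 215 bp from H3C10. The same held on chromosome 1, where captured regions of GATA6-AS TFR1 starting at 228407151, 228408601, 228413201 and 228446601 were named HIST3H3, HIST3H2A, HIST3H2BB and HIST3H2BA, and lay 17.4, 48.3, 44.6 and 17.02 kb from those genes. Over all 6 lists, 17343 regions with only a (+) name followed another such region whose named gene still lay ahead, and 16697 of them (96.3%) were named for a gene further on, against 111 (0.640%) named for the same gene. How the authors assigned the names is not given in the sources used here. For the 18 histone-named regions of this kind the median distance was 40.0 kb, and 9 had another clustered histone gene nearer than the named one.

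Because of these distances, the regions were also counted by position alone. Within 5 kb of any of the 90 clustered histone genes of RefSeq (71 coding, 19 pseudogenes) lay 42 regions, 26 captured and 16 control. Only 27 of the 42 carried a histone name, and 35 of the 62 histone-named regions lay farther off. The captured and control counts by position were 5 and 2 with MEG3 TFR1, 8 and 4 with MEG3 TFR2, and 13 and 10 with GATA6-AS TFR1. Regions near a histone gene but otherwise named included a captured region of GATA6-AS TFR1 between the gene starts of H4C10P and H2BC13 (chr6:27807201-27807450, log2 ratio 1.46, named AL049822.1) and one 443 bp from H2BC26 on chromosome 1 (1.36, named RNF187).

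At the histone genes themselves, captured regions were sparse with every oligo. With MEG3 TFR1, 0 of the 71 coding genes had a captured region within 1 kb of either gene end (Wilson interval up to 5.13%), against 28.2% of all 19974 protein-coding genes. With MEG3 TFR2 there were 6 genes, or 8.45% (3.93% to 17.2%), against 22.2%. With GATA6-AS TFR1 there were 8 genes, or 11.3% (5.82% to 20.7%), against 46.8%. Histone genes are short, with a median length of 495 bp against 24170.5 bp for all coding genes, so that their 2 ends take up nearly the same DNA. Among coding genes of at most 2 kb, a class that held 62 of the 71, the shares were 18.6%, 15.2% and 30% in that order of oligos. Among coding genes whose promoter had a GC content under 50%, as did 55 of the 66 histone promoters (83.3%) and 17.8% of all promoters, they were 14.8%, 12% and 16.8%. The histone share with GATA6-AS TFR1 was thus below that of all coding genes and that of short genes by more than its interval, and its interval held the share of low-GC genes. With MEG3 TFR2 the interval held the shares of both classes and not that of all coding genes, and with MEG3 TFR1 it held none of the 3. These genes lie side by side, and neighbours can share a region, so intervals that treat genes as independent are too narrow. Within 5 kb of an end, captured regions were listed for 2, 12 and 14 histone genes in the same order of oligos. These were 2.82% (Wilson interval 0.776% to 9.70%), 16.9% (9.94% to 27.3%) and 19.7% (12.1% to 30.4%) of the 71. For all coding genes the 5 kb shares were 57.2%, 51.7% and 66.2%. For short genes they were 36.7%, 29.1% and 41.6%, and for low-GC genes 35.92%, 32.32% and 35.99%. With each oligo the histone interval at 5 kb lay below the shares of all 3 gene classes. At 1 kb, by contrast, some intervals held the share of a class. Every region behind the MEG3 TFR2 count at 5 kb lay that near to more than 1 coding histone gene. The upper bound of that interval, 27.3%, was close to the short-gene share of 29.1%. Whether the gap holds with error counted over regions was not tested. Captured regions overlapped 1, 1 and 3 histone genes, against 60%, 56.8% and 67.1% of all coding genes. Among those of at most 2 kb the overlapped shares were 11.3%, 6.81% and 20.2%.

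Behind those counts, MEG3 TFR2 captured DNA beside H2BC3, H2BC4, H2AC6, H2BC6, H2BC10 and H2AC15, all H2A or H2B genes, and one region at a log2 ratio of 0.82 served both H2BC4 and H2AC6. GATA6-AS TFR1 captured DNA beside H3C1, H4C1, H4C6, H2BC13, H2AC13, H3C10, H2BC26 and H4C16, with log2 ratios from 1.11 to 2.44. A single region served both H3C1 and H4C1, and the only region beside H2AC13 also served H2BC13. Overall 14 of the 71 genes (19.7%) had a captured region with any oligo, against 58.9% of all coding genes. By type, 3 of 17 H2A, 6 of 18 H2B, 2 of 15 H3, 3 of 15 H4 and 0 of 6 H1 genes had one. Control regions lay within 1 kb of H2BC3 and H2BC5 in all 3 comparisons and of H4C7 with GATA6-AS TFR1. That was 2 (2.82%), 2 (2.82%) and 3 (4.23%) of the 71 genes with MEG3 TFR1, with MEG3 TFR2 and with GATA6-AS TFR1, against 2.33%, 2.22% and 5.92% of all coding genes. The control shares were 0.881%, 1.12% and 3.04% for coding genes of at most 2 kb and 2.17%, 1.89% and 5.73% for low-GC genes. The histone intervals, 0.776% to 9.70% with either MEG3 oligo and 1.45% to 11.7% with GATA6-AS TFR1, held all of these shares.

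**Figure D4:**
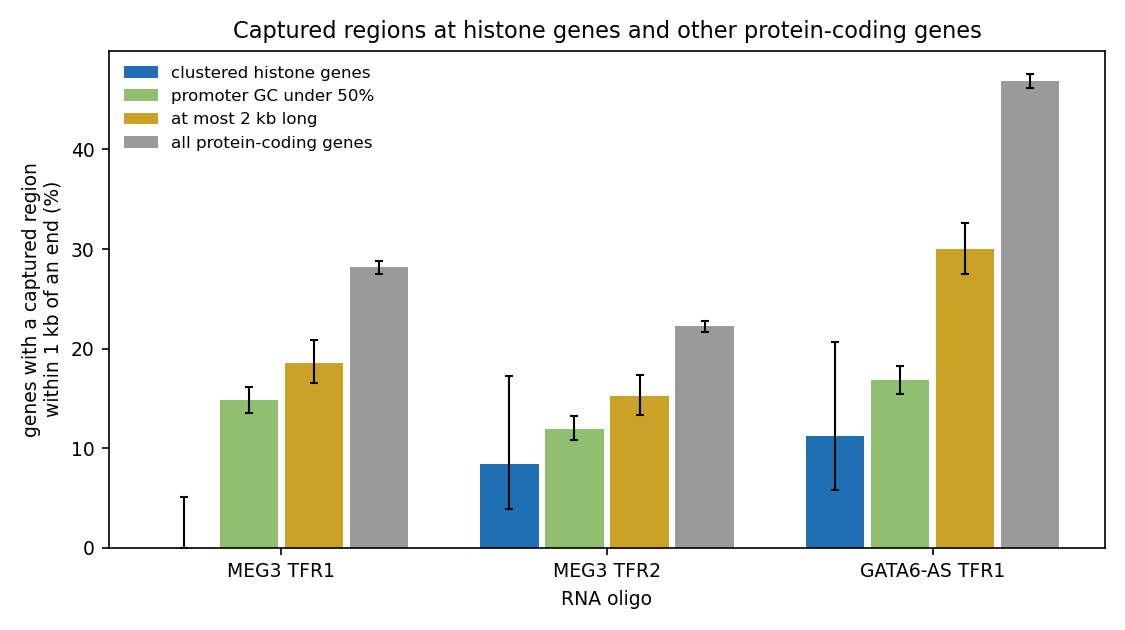
Percent of genes with a captured region within 1 kb of either gene end, by oligo, for clustered histone genes (blue), coding genes with a promoter GC content under 50% (green), coding genes of at most 2 kb (yellow) and all protein-coding genes (grey), with 95% Wilson intervals over genes. The histone share was 0% with MEG3 TFR1, 8.45% with MEG3 TFR2 and 11.3% with GATA6-AS TFR1, the lowest bar for each oligo.

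Overlap with the promoter window was rarer still. Captured regions overlapped 0, 1 and 1 of the 66 histone promoters with MEG3 TFR1, with MEG3 TFR2 and with GATA6-AS TFR1, against 6.58%, 2.68% and 16% of all 15813 coding promoters and 3.24%, 1.64% and 2.39% of those with a GC content under 50%. The histone intervals were 0% to 5.50% with MEG3 TFR1 and 0.268% to 8.10% with either other oligo. They held the low-GC share with each oligo, and the share of all promoters with MEG3 TFR2 only. The histone promoters as a group had a median GC content of 43.2%, against 62.7% for all. The letters TATAAA, on either strand, occurred in 44 of the 66 histone promoters (66.7%), against 9.64% of all promoters, and CCAAT in 56 (84.8%), against 36.3%. CCAAT was present in every H1, H2A, H2B and H3 promoter and in 3 of the 13 H4 promoters. AGAGAG was found in 6 histone promoters (9.09%), against 23.2% of all. A run of at least 12 purines or 12 pyrimidines was found in 27 (40.9%), against 44.2%, and the median longest run was 11 bases in both. These matches describe the letters of the windows only.

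Along chromosome 6, the histone gene blocks of the HIST1 cluster held fewer captured regions per Mb than the stretches between them with MEG3 TFR1 and GATA6-AS TFR1, and nearly the same number with MEG3 TFR2. Over the 2.17 Mb of the span there were 25.8, 18.5 and 22.6 captured regions per Mb with MEG3 TFR1, with MEG3 TFR2 and with GATA6-AS TFR1, against 25.6, 22.8 and 26.2 over the rest of chromosome 6. Within the blocks of histone genes no more than 200 kb apart, 0.698 Mb in all, the densities were 8.59, 18.6 and 14.3 per Mb, from 6, 13 and 10 regions. Between the blocks they were 34.0, 18.4 and 26.5 per Mb. Control regions ran at 2.86, 8.59 and 22.9 per Mb in the blocks, from 2, 6 and 16 regions, against 3.81, 3.41 and 12.2 over the rest of the chromosome. In the blocks GATA6-AS TFR1 thus had more control than captured regions, 16 against 10. The first block includes stretches without histone genes, 11.6 to 155.9 kb and 156.4 to 290.0 kb past the start of H2AC1. Control regions of GATA6-AS TFR1 starting at 16.0, 55.8, 114.0, 117.0, 132.1, 161.3, 251.3 and 267.4 kb lie there. So do its captured regions starting at 71.6, 230.7 and 261.2 kb. Within 5 kb of any clustered histone gene that oligo had 13 captured and 10 control regions.

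**Figure D5:**
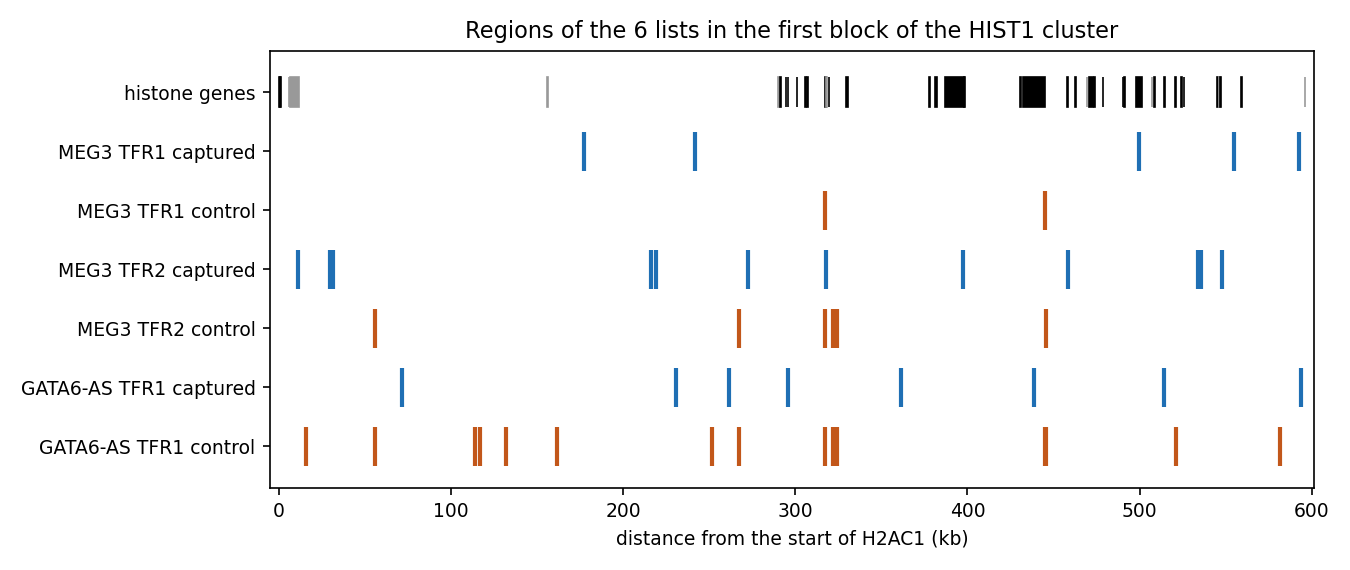
Position of every region of the 6 lists in the first block of the HIST1 cluster, in kb from the start of H2AC1, with coding histone genes in black and histone pseudogenes in grey on the top row. The rows hold 5 captured and 2 control regions for MEG3 TFR1, 12 and 6 for MEG3 TFR2, and 8 and 15 for GATA6-AS TFR1.

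The smaller blocks differed in density. The HIST3 block on chromosome 1, 39.7 kb with 4 genes, held 5 captured and 2 control regions of GATA6-AS TFR1 and none of either MEG3 oligo. Those counts are 126 captured and 50.3 control regions per Mb, against 44.3 and 9.01 per Mb with that oligo on the rest of chromosome 1. The HIST2 block, 105 kb with 13 genes, held 1 region in all, the MEG3 TFR1 captured region named HIST2H2BE (chr1:149877501-149877900), against a density of 45.8 captured regions per Mb with that oligo on the rest of chromosome 1. The middle HIST1 block, 15.2 kb with 5 genes, held no region of any list. No test compares the oligos here, and counts this small carry a wide counting error.

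Captured histone-named regions were seldom shared between oligos. Only 2 of the 10 MEG3 TFR1 regions overlapped a captured region of another oligo, both of them on chromosome 13 and both with MEG3 TFR2, by 50 and 450 bp. None of the 13 MEG3 TFR2 regions and none of the 17 GATA6-AS TFR1 regions did. Over the whole captured lists, 27.4%, 35.6% and 28.1% of regions overlapped one of another oligo. Merged among themselves, the 40 histone-named captured regions formed 40 separate loci, each with 1 oligo. Regions under other names were left out of that merging. Among control regions, 3 of 3 with MEG3 TFR1, 5 of 5 with MEG3 TFR2 and 8 of 14 with GATA6-AS TFR1 overlapped one of another comparison, against 81.8%, 87.4% and 36.4% of whole control lists. Merged in the same way, the histone-named control regions formed 15 loci. Of these, 9 held histone-named regions of 1 oligo, 5 of 2 and 1, in H2BC3, of all 3. Overlaps with control regions under other names are not in these locus counts. All lists rest on the same no-oligo libraries, so they are not independent of one another.

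Genes of the same pathway outside the set of clustered histone genes were counted in the same way. Within 1 kb of a gene end, captured regions were listed for 2, 2 and 7 of 11 replacement histone genes, which encode histones deposited outside replication, with MEG3 TFR1, with MEG3 TFR2 and with GATA6-AS TFR1. For 13 genes of histone mRNA transcription and processing the counts were 4, 3 and 7, and for 8 histone chaperone genes 4, 2 and 3. As shares these are 18.2%, 18.2% and 63.6% of the replacement histone genes, 30.8%, 23.1% and 53.8% of the mRNA genes and 50%, 25% and 37.5% of the chaperone genes, against 28.2%, 22.2% and 46.8% of all coding genes. For every list and oligo the Wilson interval held the share of all coding genes. H2AJ, a replacement histone gene on chromosome 12, lies near H4C16, and its captured region of GATA6-AS TFR1 at 1.45 is also among the 42 regions counted by position. Control regions were listed for 1, 1 and 1 replacement histone genes and for none of the other two lists. NPAT, the activator named above, had a captured region of MEG3 TFR1 at 1.52. SLBP, which binds the stem-loop of histone mRNA, had captured regions of MEG3 TFR2 at 2.00 and of GATA6-AS TFR1 at 2.29. SYMPK, the scaffold of the cleavage complex, had one with each oligo, at 1.08 with MEG3 TFR1, 0.99 with MEG3 TFR2 and 1.80 with GATA6-AS TFR1.

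The highest value in these lists was that of ASF1B, a chaperone of H3 and H4, with 3.66 (12.6-fold) with GATA6-AS TFR1, and it had captured regions at 1.80 with MEG3 TFR2 and 1.14 with MEG3 TFR1. DAXX, a chaperone of the replacement histone H3.3, was also captured with all 3 oligos, at 1.30, 1.67 and 1.80 with MEG3 TFR1, with MEG3 TFR2 and with GATA6-AS TFR1. MACROH2A1, which encodes a large H2A variant, had captured regions of MEG3 TFR1 at 1.92 and MEG3 TFR2 at 2.56. Within 1 kb of its ends, H2AZ2, encoding a form of H2A.Z, had no captured region and had control regions with MEG3 TFR1 at -2.12 and GATA6-AS TFR1 at -2.27.

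Other clustered families gave a range of values under the same counting. Protocadherin names, from a cluster of cell adhesion genes, had 13 captured and 5 control regions with MEG3 TFR1, 13 and 3 with MEG3 TFR2, and 19 and 14 with GATA6-AS TFR1, so that 57.6% were captured with GATA6-AS TFR1. HOX names, from clusters of patterning genes, had 97 and 2, 51 and 3, and 128 and 10, with 92.8% captured with GATA6-AS TFR1. Keratin names had 199 and 23, 186 and 22, and 243 and 74, with 76.7% captured. By gene ends, 45.3%, 41.5% and 47.2% of 53 protocadherin genes and 72.5%, 47.5% and 92.5% of 40 HOX genes had a captured region within 1 kb with MEG3 TFR1, with MEG3 TFR2 and with GATA6-AS TFR1. Genes of a cluster can share a region, so these shares do not count separate captures. With MEG3 TFR1 24 and with MEG3 TFR2 22 protocadherin genes were counted, and the numbers were the same within 5 kb. The shares of 149 keratin and keratin-associated genes were 21.5%, 16.8% and 25.5%, and all 3 families stood above the histone shares of 0%, 8.45% and 11.3%. With MEG3 TFR2 the keratin interval (11.6% to 23.6%) overlapped that of the histone genes (3.93% to 17.2%). With GATA6-AS TFR1 they overlapped as well, 19.2% to 33.1% against 5.82% to 20.7%. With MEG3 TFR1 the keratin interval (15.6% to 28.7%) lay above the histone interval (up to 5.13%).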

How the data were processed

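Sequenced were DNA captures with 3 RNA oligos and with none, 2 libraries per group. The submitters' processing notes name BWA 0.7.15-r1140, FastQC and the build hg38. Not given in the sources used here are the region caller and its settings, and the input was not analysed here. The 6 deposited lists hold one log2 ratio per region, computed by the authors, with no value per library, so depth and replicate error are unknown. That the scale is log2 was read from the values: for 98.2% or more of each list, 2 to that power matched, within a relative 3e-10, a ratio of whole numbers whose denominator was 400 or less, and e to that power did so for 0.00859% or less.

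The members and gene lists were chosen with earlier results of these data known. Names were matched to RefSeq (GRCh38.p14), which gives gene ends; no genome was used. Counts are set beside those over all regions or genes, with 95% Wilson intervals; the plan has no test. The genes named by rule were, for each oligo, the 6 captured members with the highest ratio, the 4 widest, the control members with the largest ratios, and the gene of each cluster with the most captured regions; the remaining members are named so that each is accounted for. Alternatives planned were the top 50% of ratios, log2 ratios of 1.5 or more in size, other name rules, joining within 200 bp, gene ends of 5 kb and the span. Short genes, low-GC promoters, promoter windows, gene bodies and leaving out chromosome 13 were added after seeing the data. The code was tested on simulated data. Python 3.11.15, numpy 2.4.6, pandas 2.3.3, scipy 1.17.1 and matplotlib 3.10.9 were used.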

Additional observations from a re-analysis of the deposited data

How the results depend on the processing

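Of the alternatives, 72 values stayed within the spread or counting interval of the reported one, or within 1.5 times for counts, and 39 moved. Regions in the larger 50% of ratios left 3, 4 and 8 captured members with MEG3 TFR1, with MEG3 TFR2 and with GATA6-AS TFR1, and 2 control members with MEG3 TFR2. The median captured ratio became 2.03 with MEG3 TFR1, 2.10 with MEG3 TFR2 and 1.57 with GATA6-AS TFR1, the captured share with MEG3 TFR1 became 50%, and 0 histone genes (MEG3 TFR2) and 4 (GATA6-AS TFR1) had a captured region at an end. Keeping log2 ratios of 1.5 or more in size left 3, 4 and 5 captured members and 1 control member with MEG3 TFR2. It gave medians of 2.03 (MEG3 TFR1), 2.10 (MEG3 TFR2) and 1.64 (GATA6-AS TFR1), captured shares of 50% (MEG3 TFR1) and 33.3% (GATA6-AS TFR1), 0 genes with MEG3 TFR2 and 1 with GATA6-AS TFR1, and 12.9, 8.30 and 6.00 captured regions per Mb of the HIST1 span. Names without a flanking mark left 4, 4 and 5 captured members and 3 and 5 control members with MEG3 TFR2 and GATA6-AS TFR1. Position within 5 kb gave 5 captured members with MEG3 TFR1 and 8 with MEG3 TFR2, and leaving out the chromosome 13 pseudogenes gave 6 with MEG3 TFR1. Gene ends of 5 kb gave 2, 12 and 14 genes. Regions overlapping the gene gave 1, 1 and 3 genes, and the promoter window gave 1 with MEG3 TFR2 and 1 with GATA6-AS TFR1. Leaving out stretches over 200 kb between histone genes gave captured densities of 8.59 per Mb (MEG3 TFR1) and 14.3 per Mb (GATA6-AS TFR1). Asking for 0.5 of the shorter region to be shared left 1 shared MEG3 TFR1 region. Stricter cuts keep fewer regions by construction, and the cause of the other shifts was not tested. No paired analysis was possible because each list holds one value per region for both libraries together, and for that reason the planned replicate block and leaving out each replicate were not run. With 3 to 17 members in a list, counting error alone is wide, and the error of a ratio is unknown.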
